A study of Mus musculus with 11 samples.

Results

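The klotho family and the receptors it works with were followed in the aorta of old mice as 9 genes. These are the klothos Klb, Lctl and Kl, the FGF receptors Fgfr1, Fgfr2, Fgfr3 and Fgfr4, and the ligands Fgf1 and Fgf21. They are 9 of the 36413 gene names on the array, and taking every probe with one of these names gave 15 of 55681 probes. The genes were chosen with the differences between nitrate treated and control mice on these same arrays already known, so their differences are given as a description, with their errors and without a P value.

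Transcripts were measured in the descending aorta of male C57BL/6 mice aged 20 months, each mouse on 1 single-color Agilent array. Old nitrate treated mice (n = 5) had received 1 g/L NaNO3 in the drinking water for 8 weeks. Old controls (n = 6) drank NaCl at an equal concentration by the methods of the study, whereas their labels name no NaCl and refer to a new analysis of earlier samples. The comparison asks which vascular transcripts differ after nitrate. The methods count another nitrate treated mouse, whose array was not used here.

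Klothos are membrane proteins that let endocrine fibroblast growth factors (FGFs) act on ordinary FGF receptors. Kl, or alpha-klotho, serves FGF23 in phosphate and vitamin D balance, and Klb, or beta-klotho, serves FGF21 and the bile acid hormone FGF15 in fat, liver and brain. The receptors are tyrosine kinases which also answer locally acting FGFs held on heparan sulfate, and they signal through adaptors to the MAP kinase cascade, ETS transcription factors and feedback inhibitors.

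A single array detected 24763 to 28672 probes. The 23633 probes detected in 5 or more arrays of a group, meaning that the spot was found and rose well above its background, were tested. Signal strength, taken as the 75th percentile, ran from 189 to 254, and no spot was saturated. The arrays lay on 3 slides that each held both groups. Column 3 of the slides held every control and no nitrate treated mouse, so that treatment and slide column cannot be told apart. Levels below are log2 signals after quantile normalization, given as mean ± SD, and differences are nitrate minus control on the same log2 scale with the standard error (SE) of limma. The median difference of all tested probes was 0.01.

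Klb and Lctl were lower in nitrate treated mice, while the receptor and ligand probes lay close to 0. Of the 15 probes, 11 were detected, and they belong to Klb, Lctl, Fgfr1, Fgfr2, Fgfr3 and Fgf1. By the limits of the study (a P value below 0.05 without adjustment, with more than 1.2-fold change), 2 of the 11 were counted as lower and 0 as higher. Over all tested probes these limits gave 4.85% lower and 4.16% higher. In 2 of the 11, Klb and Lctl again, every nitrate array lay below every control array, and in 0 every nitrate array lay above, against 1.14% and 1.61% of all tested probes. Since the genes were chosen on this contrast, nothing is read from these counts. The other 9 detected probes had differences between -0.05 and 0.19, and the median over the 11 was 0.02.

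**Figure D1:**
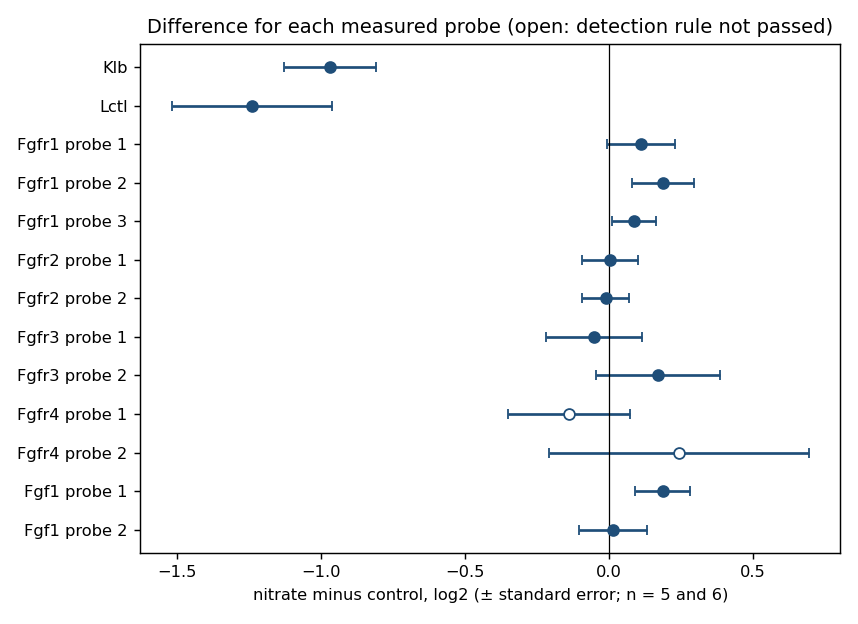
Difference between nitrate treated and control aortas for each probe except those of Kl and Fgf21, which were below background on every array (log2 scale, point and standard error, 5 against 6 arrays, open points for the Fgfr4 probes, which did not pass the detection rule). Klb at -0.97 and Lctl at -1.24 lie to the left, and every other detected probe lies between -0.05 and 0.19.

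Klb is the co-receptor through which FGF21 is recognized. Its single probe (chr5:65774926-65774985, plus strand, mm9) had log2 signals of 7.84, 7.52, 7.66, 7.96 and 8.23 in nitrate treated mice 1 to 5. In controls the lowest signal was 8.30, the median 8.79 and the highest 9.15. The groups did not overlap, and nitrate treated mouse 5, the highest of its group, lay 0.08 below control 6, the lowest of the controls. The means were 7.84 ± 0.27 (n = 5) and 8.81 ± 0.30 (n = 6), a difference of -0.97 (SE 0.16) or a level 1.95-fold lower. Klb was lower within each slide, with differences of -1.26, -0.87 and -0.86 on slides 1, 2 and 3, where the comparison rests on 2 against 2, 1 against 2 and 2 against 2 arrays. With each array left out in turn the difference lay between -1.07 and -0.89.

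Lctl, called lactase-like or gamma-klotho, is a glycosidase-like member of the family best known from the eye lens. Its probe (chr9:63985823-63985882, plus strand, mm9) had log2 signals of 7.52, 8.29, 8.75, 8.61 and 8.28 in nitrate treated mice 1 to 5, against 8.88, 9.53 and 10.19 as the lowest, median and highest of the controls. Here too the groups were apart, by 0.13 between nitrate treated mouse 3 and control 6. The means were 8.29 ± 0.48 (n = 5) and 9.53 ± 0.55 (n = 6), and the difference was -1.24 (SE 0.28), or 2.36-fold lower. Within slides 1, 2 and 3 it was -1.22, -0.65 and -1.62, and with each array left out it lay between -1.37 and -1.05. The slide with the smallest difference holds 1 nitrate array, and its control 6 was the lowest control for both Klb and Lctl. Only a single probe stands for each of these genes, so no other probe bears on their values.

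**Figure D2:**
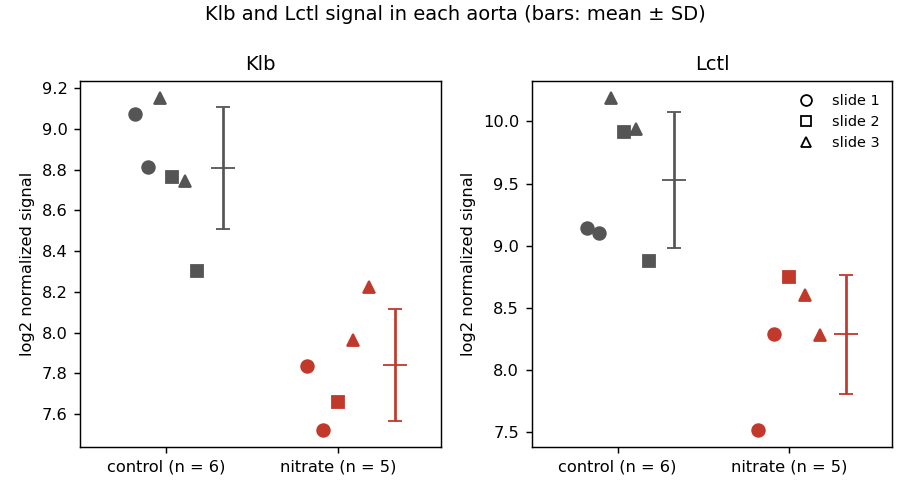
Log2 normalized signal of Klb and Lctl in each of 6 control and 5 nitrate treated aortas, with marker shapes for the slide and bars for the mean and SD. All nitrate arrays lie below all controls for both genes, with gaps of 0.08 for Klb and 0.13 for Lctl.

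Klb and Lctl did not vary together closely among mice of 1 group. After subtraction of each group mean, the correlation of their log2 signals over the 11 arrays was 0.27, given as a description. The genes most like Klb in this respect were Nudt9 (r = 0.96), Pmpcb (0.94) and Mfsd8 (0.94), and those most like Lctl were Plekhm3 (0.93), Usp38 (0.93) and Zfp655 (0.91). They are the 3 highest of 12204 genes over 11 arrays for each member, and such values are high in part by selection. Unlike Klb and Lctl, these 6 genes had differences between treated and control mice of only -0.11 to 0.20.

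RNA of all cells of the vessel was measured together, so fewer cells of a type and less RNA per cell cannot be told apart. Adipocyte markers moved in the same direction as Klb and Lctl. The marker lists were drawn up with earlier results of these data known, and their shares are not independent evidence of a direction. All 12 of 12 listed adipocyte markers were detected and lower, 7 of them past the same limits in limma's test (median difference -0.37, smallest adjusted P value 0.130). The 7 are 58.3% of the list, next to 4.85% called lower among all tested probes. Adipoq, which encodes adiponectin, was -0.49 (SE 0.11), and Retn, which encodes resistin, was -0.84 (SE 0.25). With Adrb3, at -0.80 (SE 0.21), they are the 3 markers without overlap between the groups. Among all tested probes every nitrate array lay below every control array in 1.14%. The smallest difference was that of Fabp4, at -0.16 (SE 0.13), which was not called. The summed normalized signal of the 12 markers was 271810 to 361390 in nitrate treated mice and 352950 to 497120 in controls, ranges that overlapped slightly. This sum is carried mostly by the brightest markers, Cfd and Fabp4, with mean log2 signals of 17.09 and 17.05 in controls. The vessels had been cleaned of surrounding fat, and every marker of the list was still detected. Within groups, the mean of the adipocyte markers had a correlation of 0.64 with Klb and 0.49 with Lctl over the 11 arrays. The part of adipocyte RNA in the lower Klb and Lctl was not tested. The 6 brown adipocyte markers were mixed, with 4 lower, 2 of which, Cidea and Ppargc1b, were called, and 2 higher, Ucp1 at 0.23 (SE 0.38) and Elovl3 at 0.23 (SE 0.63). The called markers are 33.3% of this list, next to the same 4.85%. Of the 8 smooth muscle markers that define the vessel wall, all were detected, 7 were higher with a median of 0.11, and 1, Lmod1, was called at 0.31 (SE 0.11). Smtn, at 0.26 (SE 0.12) and under 1.2-fold, was higher in all nitrate treated mice than in all controls. Each marker gene was represented by its brightest detected probe, and on these probes 0 of 8 endothelial, 8 fibroblast and 7 macrophage markers detected were called by limma at these limits. Medians were -0.10 for the endothelial list, with 3 higher and 5 lower, 0.17 for the fibroblast list, with all 8 higher, and 0.12 for the macrophage list, with all 7 higher. The other detected probe of the endothelial marker Kdr was called lower, at -0.57, against -0.10 (SE 0.10) on the brightest.

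For Klb and Lctl, which were lower together, the 250 bases before the transcription start are shown from the RefSeq promoter table of assembly GRCm38.p6. Capitals mark CpG dinucleotides. These coordinates belong to another build than those of the probes.
Klb, chr5:65348161-65348410, plus strand: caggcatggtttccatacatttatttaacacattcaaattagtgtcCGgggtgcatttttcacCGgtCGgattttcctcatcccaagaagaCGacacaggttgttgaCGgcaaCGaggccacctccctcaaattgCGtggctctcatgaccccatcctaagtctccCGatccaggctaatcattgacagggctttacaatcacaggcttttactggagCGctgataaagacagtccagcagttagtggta
Lctl, chr9:64116897-64117146, plus strand: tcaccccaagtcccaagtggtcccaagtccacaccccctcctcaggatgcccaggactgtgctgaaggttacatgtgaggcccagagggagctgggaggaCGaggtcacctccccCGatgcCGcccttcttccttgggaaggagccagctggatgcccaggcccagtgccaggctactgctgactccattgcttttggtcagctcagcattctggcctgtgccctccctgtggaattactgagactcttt

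The Klb window held 9 CpG dinucleotides at a GC content of 48.0%, and 40.3% of all 32851 windows of this length held at least as many. The Lctl window held 3 at a GC content of 60%, and 37.8% of windows held no more than that. Medians over all windows were 6 CpG dinucleotides and 52.4% GC. The letters AGGTCA, the core of sites for nuclear receptors such as the PPARs, were searched on either strand and occurred once in the Lctl window, starting 148 bases before the transcript, and in 14% of all windows. The Klb window held no AGGTCA. A pair of AGGTCA copies 1 base apart, which contains the single motif, was in neither window and in 0.0335% of all. Other motifs searched the same way were absent from both windows. They were CACGTG, the E-box of factors such as Mlxipl (6.02% of all windows), then TTATGTAA, a D-box of clock output factors (0.819% of all windows), further CCAAT, the box of NF-Y (33.8% of all windows), and last TATAAA, the core of a TATA box (12.4% of all windows). Windows were present for 7 of the 9 genes, of which Fgf21 held CACGTG and TATAAA and Fgfr3 held CCAAT. A match describes letters and not a bound site.

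Kl, the founding klotho and co-receptor for FGF23, was not well above background on any of the 11 arrays. Its probe (chr5:151795712-151795771, plus strand, mm9) gave processed signals of 3.81 to 5.36 before normalization, while the lowest signal called well above background was 16.3 to 19.7, depending on the array. No fold change is given for it. In the same way the probe of Fgf21, the hormone that binds through Klb (chr7:52869305-52869364, minus strand, mm9), stayed at 3.54 to 7.82 and was well above background on 0 arrays. The highest of these values was in control 1, and the probe itself is of unusual composition, with 20% GC and 63.3% T.

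**Figure D3:**
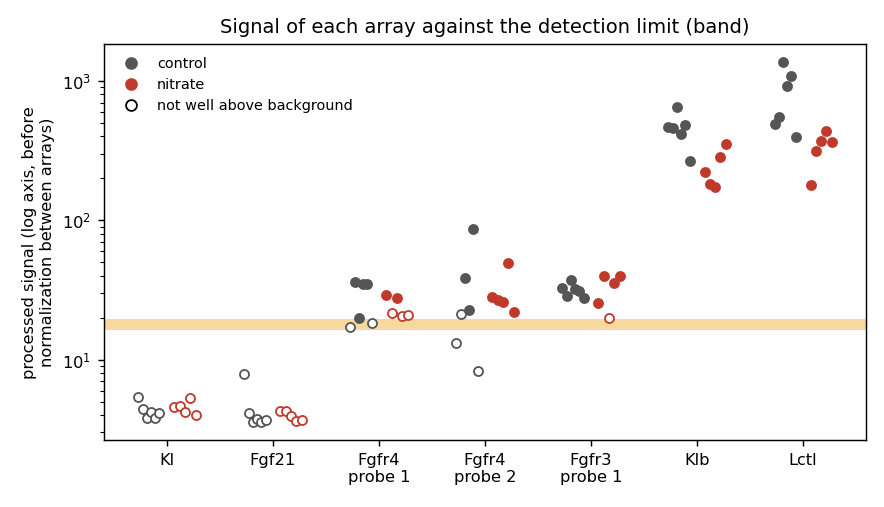
Processed signal of each array before normalization (log axis) for dim member probes and for Klb and Lctl, with controls in grey, nitrate treated mice in red and open points where a spot was not well above background. The band spans the lowest signals called well above background on the arrays, 16.3 to 19.7. Kl and Fgf21 lie under the band on every array, the Fgfr4 probes lie around it, the dimmer Fgfr3 probe lies just above it at 19.9 to 39.8, and Klb and Lctl lie far above it.

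Fgfr1, the receptor that pairs with Klb for FGF21 in fat, was measured by 3 probes on chromosome 8, all detected on every array. Probe 1 (chr8:26684061-26684120, mm9) had levels of 10.14 ± 0.25 in nitrate treated mice (n = 5) and 10.03 ± 0.17 in controls (n = 6), a difference of 0.11 (SE 0.12). Probe 2 (chr8:26685072-26685131, mm9) had log2 signals of 13.42, 13.67, 13.35, 13.57 and 13.48 in nitrate treated mice 1 to 5 and 12.89, 13.34 and 13.52 as the lowest, median and highest of the controls. The groups overlapped, and the lowest value was that of control 1. The difference of probe 2 was 0.19 (SE 0.11), and that of probe 3 (chr8:26685820-26685879, mm9) was 0.09 (SE 0.08), from 8.42 ± 0.05 and 8.33 ± 0.15. All 3 differences were smaller than the SD of the controls. Their sign held under every alternative tried, but their size rested on single arrays. Without control 1, probe 2 was at 0.11 and probe 3 at 0.04, while probe 1 was at 0.06 without nitrate treated mouse 1, 2 or control 3 and at 0.19 without nitrate treated mouse 4. Within slides, probe 1 was at -0.06 on slide 3 and probe 2 at -0.07 on slide 2.

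Fgfr2, the receptor known best for epithelial FGFs, differed by 0.01 (SE 0.10) on probe 1 (chr7:137307455-137307514, minus strand, mm9) and by -0.01 (SE 0.08) on probe 2 (chr7:137307473-137307532, minus strand, mm9). Levels of probe 1 were 6.40 ± 0.09 and 6.39 ± 0.20 and those of probe 2 were 7.88 ± 0.11 and 7.89 ± 0.14 in nitrate treated mice and controls. The 2 probes share 42 bases and are not independent. Probe 1 was printed 10 times on each array, which gives the error of a spot. Within an array the SD of the log2 signal over these spots was 0.07 to 0.15, with a median of 0.11, which for a mean of 10 spots is an error of 0.04. The SD of these means between arrays after normalization was 0.09 in nitrate treated mice and 0.20 in controls. All other probes of the 9 genes were printed once per array, and their spot error was not measured.

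**Figure D4:**
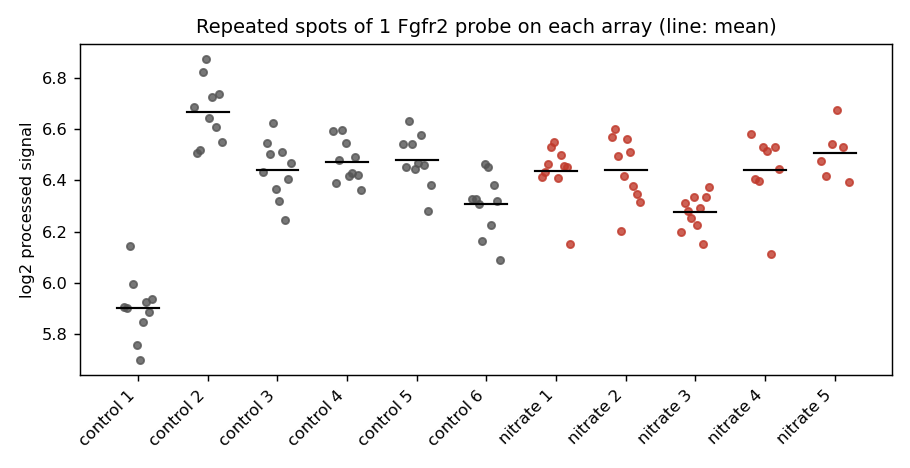
Log2 processed signal, before normalization between arrays, of each repeated spot of Fgfr2 probe 1 on each of the 11 arrays, without outlier-flagged spots, with a line for the mean. Spots of 1 array spread with an SD of 0.07 to 0.15, and the array of control 1 lies below the others.

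Fgfr3 and Fgfr4 were measured near the limit of detection on part of their probes. Fgfr3, a receptor known for its part in bone growth, had 1 bright probe, probe 2 (chr5:34079649-34079708, mm9), with log2 signals of 7.66, 7.94, 7.56, 8.47 and 8.59 in nitrate treated mice 1 to 5. The controls had a lowest value of 7.34, a median of 7.90 and a highest of 8.34. The groups overlapped over most of their range, and the 3 highest values, of nitrate treated mice 4 and 5 and control 5, all came from slide 3. The difference was 0.17 (SE 0.22), and it was 0.26, -0.35 and 0.36 within slides 1, 2 and 3. With each array left out in turn it lay between 0.04, without nitrate treated mouse 5, and 0.29, without nitrate treated mouse 3. Fgfr3 probe 1 was detected on 3 nitrate and 6 control arrays, so it was tested only through the controls, and its difference was -0.05 (SE 0.17).

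Fgfr4, the receptor that pairs with Klb for bile acid signals in the liver, did not pass detection on either probe. Probe 1 was well above background on 2 of 5 nitrate and 4 of 6 control arrays, and probe 2 on 5 of 5 and 3 of 6. The log2 signal of probe 2 (chr13:55270033-55270092, mm9) ran from 4.36 to 5.44 in nitrate treated mice and from 3.30 to 6.20 in controls. With a difference of 0.24 (SE 0.45) on probe 2 and of -0.14 (SE 0.21) on probe 1, no difference of Fgfr4 was detectable at this signal. Within slides 1, 2 and 3 probe 2 was at 0.64, 0.92 and -0.82. Its value turned to -0.02 without control 6 and reached 0.56 without control 5.

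The probe sequences of the receptors are shown because probes of Fgfr1 and Fgfr4, and in part of Fgfr1 and Fgfr3, have similar letters. Capitals mark bases identical to the other receptor at the best ungapped offset, for Fgfr1 and Fgfr4 with each other and for Fgfr3 with Fgfr1, and all are from the plus strand of mm9.
Fgfr1 probe 1, chr8:26684061-26684120: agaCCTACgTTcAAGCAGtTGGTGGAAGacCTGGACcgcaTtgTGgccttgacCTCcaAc
Fgfr4 probe 1, chr13:55269212-55269271: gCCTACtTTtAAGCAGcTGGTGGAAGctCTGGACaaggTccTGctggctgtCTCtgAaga
Fgfr3 probe 1, chr5:34077856-34078090: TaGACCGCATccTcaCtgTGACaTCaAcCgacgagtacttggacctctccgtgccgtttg

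The Fgfr1 and Fgfr4 probes agreed at 35 of 58 overlapping bases (60.3%), the Fgfr1 and Fgfr3 probes at 19 of 29 (65.5%), and the Fgfr4 and Fgfr3 probes at 10 of 24 (41.7%). The 60 bases of the Fgfr3 probe span 235 positions of the genome, so the probe crosses a gap in its alignment to the chromosome. Whether labeled RNA of 1 receptor binds to the probe of another was not tested. On Fgfr1 probe 1 all 11 arrays were well above background, whereas on the matching Fgfr4 probe 6 of 11 were. No annotation of mm9 was used here, so exon, intron and UTR positions of the probes are not given.

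Fgf1, a locally acting FGF that binds all of the receptors, was the detected ligand of the group. Probe 1 (chr18:38998337-38998396, minus strand, mm9) had log2 signals of 12.62, 12.77, 12.58, 12.65 and 12.70 in nitrate treated mice 1 to 5, against 12.10, 12.53 and 12.65 as the lowest, median and highest of the controls. The groups overlapped, and control 1 lay lowest. The difference was 0.19 (SE 0.10), from means of 12.67 ± 0.07 (n = 5) and 12.48 ± 0.20 (n = 6), and it was 0.11 without control 1. Probe 2, which lies 19937 bases away (chr18:39018274-39018333, minus strand, mm9), gave 0.02 (SE 0.12), with levels of 6.46 ± 0.20 and 6.44 ± 0.21. It was detected on 4 nitrate and 6 control arrays, so it was tested only through the controls.

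Other genes of the pathway were taken as 6 lists by their known roles. Of 111 genes listed, 73 were detected, 45 of them higher and 28 lower, with a median difference of 0.07. By the same limits in limma's test 3 rose and 5 fell, which is 11% of the 73. Among all tested probes 9% were called, 4.16% higher and 4.85% lower. Each of the 73 genes stands on 1 probe, while these shares count every tested probe. Before adjustment 10 of the 73 (13.7%) had a P value below 0.05, next to 14.4% of all tested probes. After adjustment 0 did, against 3 of all tested probes, and the smallest adjusted P value was 0.0955.

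Among the other ligands, the signal transducers and the klotho shedding and mineral genes, 0 passed the test. Of 20 other FGF ligands 9 were detected and 0 called, with a median of 0.13, among them Fgf2 at 0.20 (SE 0.14) and Fgf18 at -0.25 (SE 0.17). The probe of Fgf23, the bone hormone that uses Kl, was detected at a log2 signal of 14.64 ± 0.23 in nitrate treated mice and 14.51 ± 0.19 in controls, with a difference of 0.13 (SE 0.12). It is the only detected probe of Fgf23, and whether other RNA binds to it was not tested. Of 19 adaptors and MAP kinases 16 were detected and 0 called, and their differences lay between -0.12 and 0.15. Frs2, the docking protein of the receptors, was at 0.15 (SE 0.07, unadjusted P = 0.0585 in limma's test). Of 21 genes for klotho shedding, mineral balance and bile acid synthesis 7 were detected and 0 called, with a median of 0.13.

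Among 8 detected feedback inhibitors and ETS targets, Etv5 rose and no other gene passed. Etv5 encodes an ETS transcription factor that FGF signals induce in many tissues. Its log2 signals were 11.17, 11.30, 11.03, 11.22 and 11.15 in nitrate treated mice 1 to 5 and 10.48, 10.72 and 10.93 as the lowest, median and highest of the controls. All nitrate treated mice lay above all controls. The difference was 0.45 (SE 0.09), with an unadjusted P value of 0.000222 and an adjusted P value of 0.0955 in limma's moderated test. Of the others, the MAP kinase phosphatase Dusp6 was at 0.10 (SE 0.12), the inhibitor Spry1 at -0.20 (SE 0.12) and the phosphatase Dusp4 at -0.44 (SE 0.21).

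Of 22 detected genes for FGF binding and heparan sulfate, 2 rose and 1 fell, with a median of 0.13. Flrt2, a membrane protein that binds FGF receptors, rose by 0.45 (SE 0.15, unadjusted P = 0.0117, adjusted 0.247) in limma's test, although its other detected probe was at -0.01. Nitrate treated mouse 2 had the highest Flrt2 signal, 7.65, and the other nitrate arrays lay between 6.76 and 6.98, against 6.42 to 6.82 in controls. Without mouse 2 the difference was 0.29. Hpse, the enzyme that cuts heparan sulfate, was higher by 0.27 (SE 0.12, unadjusted P = 0.0475 in limma's test, adjusted 0.342), a call that was lost in 15 of 21 alternative settings, among them 9 of the 11 that leave out an array (all but nitrate treated mouse 1 and control 3). Hs6st1, which adds sulfate at the 6-O position that FGFs need, fell by 0.32 (SE 0.11, unadjusted P = 0.0137 in limma's test, adjusted 0.260), and its call was lost without nitrate treated mouse 4 and with the normexp background correction. For both genes the groups overlapped.

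Among 11 detected transcription factors known to act upstream of Fgf21 in liver or fat, 4 fell and 0 rose, which is 36.4% of the list next to 4.85% of all tested probes, with a median of -0.08. The list was drawn up with earlier results of these data known, and its share is not independent evidence of a direction. Pparg, the main regulator of adipocyte differentiation, had log2 signals of 11.71, 11.53, 11.69, 12.16 and 12.15 in nitrate treated mice 1 to 5, all below the lowest control at 12.22. It fell by 0.57 (SE 0.13, unadjusted P = 0.000794 in limma's test, adjusted 0.130). Ppara, the fasting sensor that drives Fgf21 in liver, fell by 0.45 (SE 0.13, unadjusted P = 0.00410 in limma's test, adjusted 0.192), and all 3 of its detected probes passed. Rxra, the partner of the PPARs, fell by 0.34 (SE 0.11, unadjusted P = 0.00862 in limma's test, adjusted 0.229), a call that was lost with the normexp correction. Mlxipl, which senses carbohydrate in liver and fat, fell by 0.69 (SE 0.26, unadjusted P = 0.0208 in limma's test, adjusted 0.285), and the call was lost without nitrate treated mouse 2. The 12 adipocyte markers above were lower in the same mice, and their part in these 4 genes was not tested. Atf4, the stress factor upstream of Fgf21, was at 0.19 (SE 0.20).

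**Figure D5:**
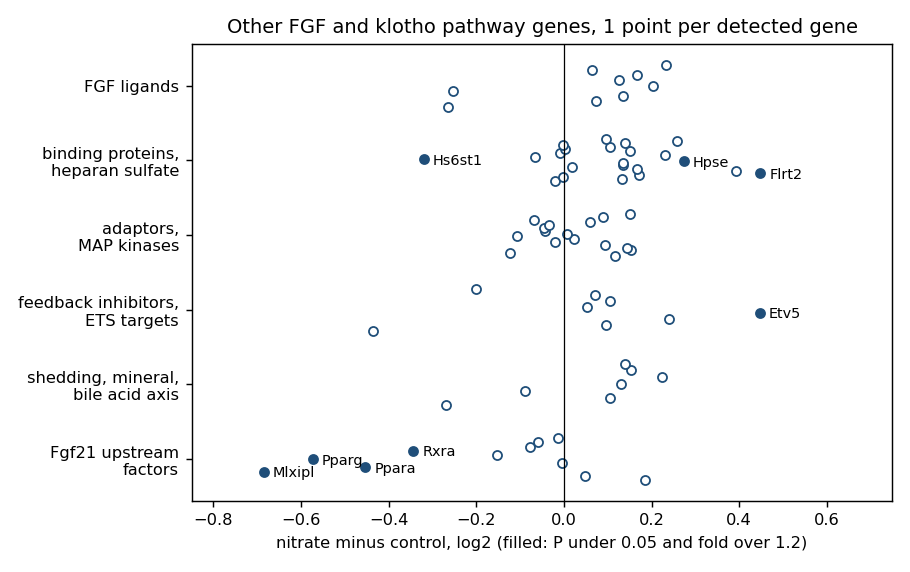
Difference between nitrate treated and control aortas (log2 scale) for each of 73 detected pathway genes in 6 lists, 5 against 6 arrays, filled where limma's unadjusted P value was below 0.05 with more than 1.2-fold change. The 5 genes that fell are Mlxipl, Pparg, Ppara, Rxra and Hs6st1, and the 3 that rose are Etv5, Flrt2 and Hpse.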

How the data were processed

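Total RNA of descending aortas was labeled with Cy3 and hybridized to Agilent mouse arrays. The authors deposited spot intensities written by Feature Extraction 10.7.1.1, background-subtracted and not normalized between arrays, and a table of log2 values made with GeneSpring GX 12.5 by quantile normalization and centring on the median of all arrays. From the deposited intensities, log2 of the processed signal was taken, with signals below 1 set to 1. Control and outlier-flagged spots were left out (at most 186 spots of an array), and replicate spots of a probe were averaged before quantile normalization over 11 arrays. Detection on an array required a spot that Feature Extraction found and marked as well above background, and probes detected in 5 or more arrays of a group were compared with lmFit and eBayes (R 4.3.3, limma 3.58.1), without covariates and with Benjamini-Hochberg adjustment over all tested probes. Undetected probes were described from a fit over all probes. Each mouse is 1 array, and the number of arrays limits the precision.

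The members, the pathway lists and the marker lists were chosen with earlier results of these data known. Named are all members, each pathway gene past an unadjusted P value of 0.05 and a fold change of 1.2 on its detected probe with the highest mean, the 3 genes most correlated with a member after subtraction of group means, and a few further genes of each list, which were picked after their values were seen. Hras and Adgre1 were not matched by name. The fit was first tested on simulated data that held 200 changed probes. Alternatives covered 75th percentile scaling, normexp background correction, the authors' log2 table, adding 16 before log2, no detection rule or detection on all arrays, keeping flagged spots, a trended and robust prior, blocks for slide and for replicate number, and leaving out each array. Probe positions are those of the files (mm9), and promoters were matched by symbol to RefSeq (GRCm38.p6).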

Additional observations from a re-analysis of the deposited data

Results flagged for a closer look

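In 5 of 30 groups of values, 15 probes in 2 groups of arrays, 1 array stood apart from the rest of its group, where chance flags about 1 in 20 groups and 1.5 would be met by chance. The measure is the gap to the nearest array as a share of the whole range of the group. Control 1 stood apart in 3 of the 5. It was high for Fgf21 (0.977) and for Kl (0.863), both of which were below background there, and low for Fgfr1 probe 2 (0.635), at 12.89 against a control median of 13.34. Control 6 was high for Fgf1 probe 2 (0.677), at 6.85 against a median of 6.36. Among nitrate treated mice only mouse 4 stood apart, with a high Kl value (0.787), again below background. No array was flagged for Klb or Lctl.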

How the results depend on the processing

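Klb and Lctl were the 2 members called in all 21 settings, the 11 that leave out 1 array included. Since the members were chosen on this contrast, nothing is read from these member calls. The 315 member differences moved by less than the pooled SD within groups of their probe, and those of Klb, Lctl and the Fgfr1 probes kept their sign throughout. The sign changed in some of the 21 settings for Fgfr2 probe 1 (8) and probe 2 (6), Fgf1 probe 2 (4), Fgfr3 probe 1 (3) and Fgfr4 probe 2 (2), and also for the values of Kl and Fgf21, which are below background. Of the pathway genes 8 were called, 5 of them with the normexp background correction (Etv5, Flrt2, Mlxipl, Ppara and Pparg), and 7 to 11 with 1 array left out. The cause was not tested. Over all probes, 2128 were called by the main settings (1146 lower and 982 higher), 1220 with normexp (783 lower and 437 higher) and 3224 without the detection filter (1509 and 1715), so that the share of lower calls also moved with these settings. Replicate numbers did not pair the mice: same-numbered arrays had correlations of -0.14 to 0.18, and 1 of 5 correlated best with its own number. With the replicate block 2 members and 10 pathway genes were called, next to 10.3% of all tested probes, and with slide as a block 2 and 7, next to 10.4%. Signal over background limits Kl, Fgf21 and Fgfr4, for which no difference could be measured. Every value of Klb and Lctl rests on 1 probe, the controls share a slide column, and no protein was measured.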

Other observations

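The other detected members were also set against all genes after subtraction of group means, over 11 arrays and 12204 genes. Closest to the brightest probe of Fgfr1 were Prdx4, Plekhg2 and Myo9b (r = 0.97 each), and closest to Fgfr2 were Pde1b (0.96), Arhgap1 (0.94) and Gm9109 (0.94). For Fgfr3 they were Zfp629 (0.97), Ccdc115 (0.96) and Chst11 (0.96), and for Fgf1 they were Rcn1, Zfp354c and Kank1 (0.96 each). These arrays share slides and a labeling protocol, and the highest of many correlations is high in part by selection.

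Heparan sulfate genes Hspg2 (perlecan, 0.23, SE 0.10) and Sulf1 (a sulfatase, 0.26, SE 0.11) passed limma's test before adjustment (P below 0.05) with less than 1.2-fold change on their brightest probe. The other detected probe of Sulf1, at 0.30, passed both limits. Markers of striated muscle were higher in all 8 detected genes, with 0 called and a summed signal of 15512 to 55328 in nitrate treated mice and 8458 to 38721 in controls. Relative to the mean of all arrays on the log2 scale, the mean of these markers was high in nitrate treated mice 4 (2.65) and 5 (1.25) and in control 1 (2.27), and it lay between -1.34 and -0.34 in the other 8 arrays. The 4 blood markers had 0 calls, but 3 were lower, and their median was -0.45, next to -0.37 for the adipocyte list. Among 3 detected lymphocyte markers there were 0 calls, with 2 lower and a median of -0.05. Of 5 detected Schwann cell markers 1 was called lower, 20% next to 4.85% of all tested probes, with a median of 0.02.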
